A study of Homo sapiens with 24 samples.

Results

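The CDK inhibitor genes are CDKN1A, CDKN1B, CDKN1C, CDKN2A, CDKN2B, CDKN2C and CDKN2D, 7 genes taken as a fixed list by name. Of the 7, 6 could be measured here among 19775 genes on the array, through 14 of the 54613 probe sets, each named with a single gene symbol. CDKN2C was not analysed here, because no probe set named with a single gene symbol was matched to it. CDKN1A and CDKN1B were each read by 1 probe set, CDKN2B and CDKN2D by 2, CDKN2A by 3 and CDKN1C by 5. A gene's main value is that of its brightest probe set, by the mean of 24 arrays, and the others are described apart, because probe sets of 1 gene need not read the same transcripts. A name ending in _x_at marks a set with probes that may also match other sequences, and _s_at a set whose probes match several transcripts.

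Cyclin-dependent kinases drive the cell cycle when a cyclin binds them, and the proteins of these genes hold them back. The CIP/KIP group, p21 from CDKN1A, p27 from CDKN1B and p57 from CDKN1C, binds whole complexes of cyclin and kinase, while the INK4 group, p16 from CDKN2A, p15 from CDKN2B, p18 from CDKN2C and p19 from CDKN2D, binds CDK4 and CDK6 and keeps cyclin D away from them. CDKN2A also encodes ARF, which is read in another frame and does not act on a kinase. EZH2 is the enzyme of Polycomb repressive complex 2 that places the repressive mark H3K27me3, and the INK4 genes on chromosome 9 and CDKN1A are among the genes on which Polycomb repression has been studied most. In germinal centre B cells, from which this kind of lymphoma derives, EZH2 is high and the cells divide fast.

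The study treated KARPAS-422, a human diffuse large B-cell lymphoma line whose labelled genotype is EZH2 Y641N, with an EZH2 inhibitor at 5 uM or with DMSO, the solvent. The compound is not named in the labels. RNA was taken after 1, 2, 3 or 6 days, which gave 8 groups of 3 arrays (Affymetrix U133 Plus 2), and the labels call the replicates biological. All 24 arrays come from this line, so both arms carry the same EZH2 allele, and no other line or genotype is part of the comparison. Values are levels on the log2 scale after RMA normalization, so that a difference of 1 is a 2-fold change.

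The 24 arrays were alike in depth of signal, with medians between 4.96 and 5.03, and arrays of 1 group correlated at 0.995 to 0.998 over all genes. A gene was called higher or lower when limma's p, adjusted by Benjamini-Hochberg over all 19775 genes, was under 0.05, and the words rose and fell are used for such calls only. The share of all genes called grew from 0.485% at day 1 to 4.39% at day 2, 16.3% at day 3 and 45.4% at day 6, so that a call at day 6 is common. Leaving out 1 array gave 32 to 87 genes in place of 96 at day 1 and 555 to 720 in place of 869 at day 2. At day 6, 18.5% of genes were higher and 26.9% lower, with a median difference of -0.11 over all genes. When each array was shifted so that its median gene showed no change, 4348 genes were higher and 3444 lower, against 3653 and 5324 as deposited. The share of calls that were higher moved from 40.7% to 55.8% at day 6 by that change of scale, and from 53.1% to 63.3% at day 3. EZH2 itself differed by 0.05, -0.09 and -0.29 at days 1, 2 and 3 without a call and fell by 0.64 (SE 0.12) at day 6 (limma, adjusted p = 8.9e-05). The 5 B cell markers measured had mean levels from 8.37 to 12.63 and all 5 myeloid markers lay below 5.14, the level under which the dimmest 40% of genes fall. Of 5 T cell markers, CD3E, CD2 and CD8A were below 5.14, while CD3G had a mean of 10.95 and CD3D of 7.12. The mean level of the B cell markers was 10.53 to 10.65 in the DMSO arrays and 10.92 to 11.03 in the inhibitor arrays at day 6. The T cell mean was 6.14 to 6.28 and 5.98 to 6.16, the myeloid mean 4.06 to 4.11 and 3.81 to 3.91, and the mean of 7 stromal, endothelial and epithelial markers, of which 3 lay below 5.14, was 4.81 to 4.82 and 4.61 to 4.65. The part of these marker levels in the results for the CDK inhibitor genes was not tested.

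The CDK inhibitor genes did not move as a group. At day 1 and at day 2 none of the 6 measured genes was called by limma, and an unadjusted p under 0.05 was found for 0 genes at day 1 and for 1, CDKN1B, at day 2. At day 3, 2 fell (CDKN2A and CDKN1C), beside 16.3% of all genes called in either direction. At day 6, CDKN1B rose and CDKN2A and CDKN2B fell, 3 of 6 beside 45.4% of all genes, which is a share near the background. The CDKN2B call rests on its brighter probe set and held in 6 of 16 alternative settings. Its dimmer probe set, 236313_at, rose by 1.35 at day 6, so the direction of CDKN2B is not settled. The median difference of the 6 genes was -0.10, -0.03, -0.08 and 0.00 at days 1, 2, 3 and 6, against -0.01, -0.04, -0.04 and -0.11 over all genes. In the DMSO arm alone, none of the 6 was called between day 1 and day 6 by limma (0.288% of all genes were), and none had an unadjusted p under 0.05.

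**Figure D1:**
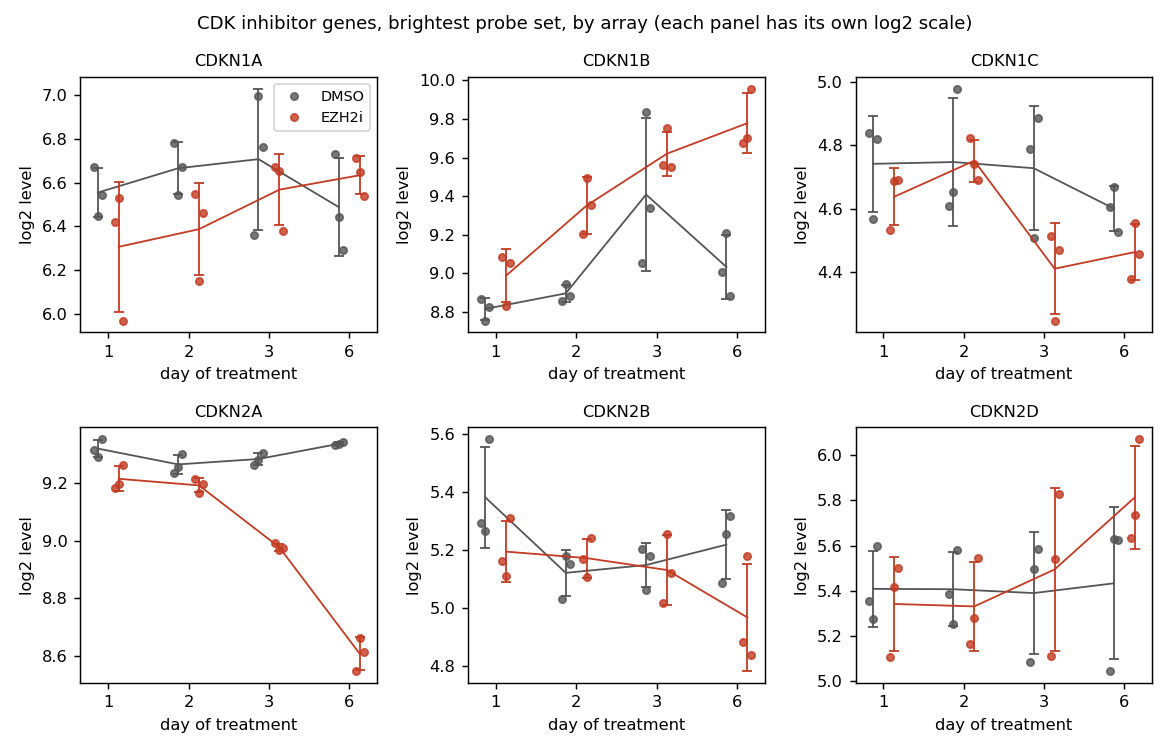
Log2 level of the brightest probe set of each of the 6 measured CDK inhibitor genes by day of treatment (days evenly spaced), with points for single arrays and lines and bars for the mean and SD of 3 arrays in DMSO (grey) and EZH2 inhibitor (red). CDKN1B in the inhibitor arm rose to 9.78 and CDKN2A fell to 8.61 at day 6, while the arms of CDKN1A overlapped at every day.

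Over the 14 probe sets, p was adjusted over all 54613. None was called at day 1 or day 2 by limma (0 and 1 had an unadjusted p under 0.05), 2 fell at day 3 and 2 rose and 4 fell at day 6, beside 0.19%, 2.26%, 10.3% and 36.7% of all probe sets. All 3 inhibitor arrays lay above all 3 DMSO arrays for 3 of the 14 at day 6 and below them for 4, where 18.1% and 27.3% of all probe sets did so. At day 1 that was 0 above and 1 below (4.56% and 5.51% of all), at day 2 it was 2 and 1 (7.69% and 11.4%), and at day 3 it was 0 and 3 (11.2% and 14.6%). Within the inhibitor arm, 2 of the 14 rose and 3 fell from day 1 to day 6 (32.4% of all probe sets were called), and within DMSO none was called by limma (0.247% of all), with 1 at an unadjusted p under 0.05.

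**Figure D2:**
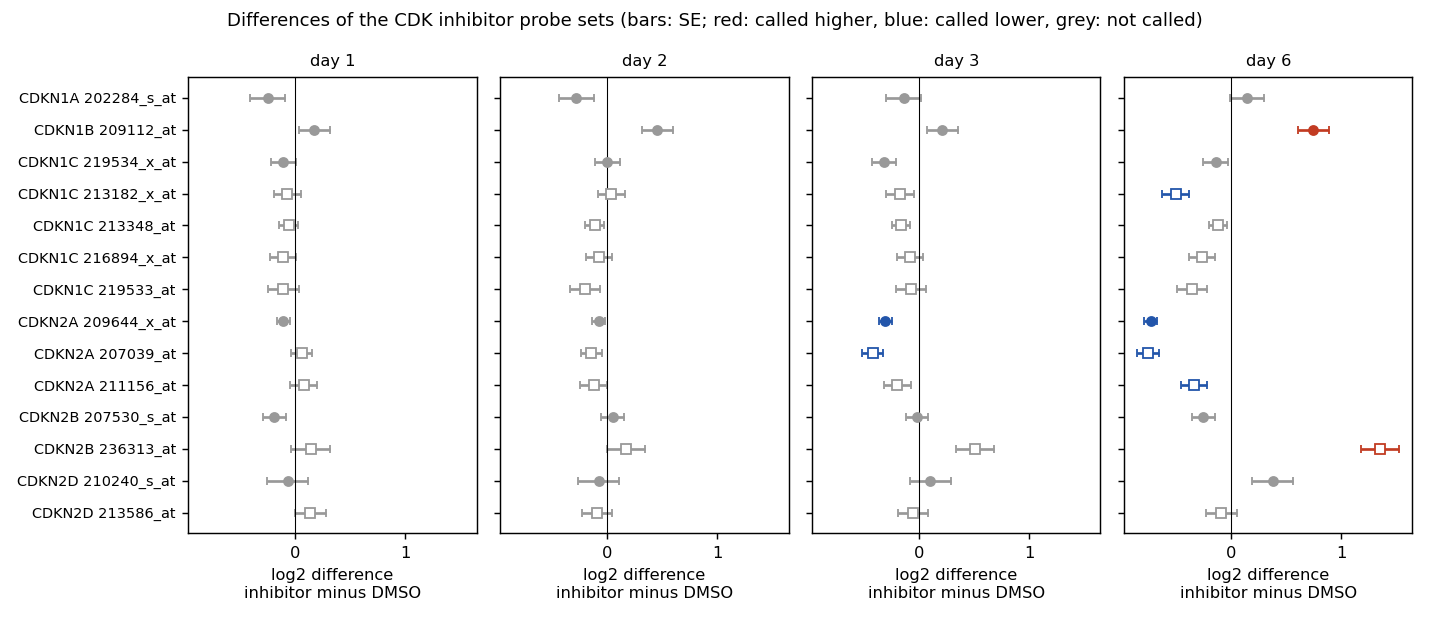
Log2 difference between inhibitor and DMSO (x axis) for the 14 probe sets (y axis) at each day, with bars of 1 SE, filled circles for the brightest probe set of a gene and open squares for the others, red for called higher and blue for called lower. CDKN2B is split at day 6, with 236313_at at 1.35 and 207530_s_at at -0.25, while all 3 CDKN2A probe sets lie below 0.

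Among the CIP/KIP genes, CDKN1B was the one that rose. Its product p27 binds cyclin E with CDK2 and is removed in dividing cells by the ubiquitin ligase that holds SKP2. CDKN1B was read by 1 probe set, so its gene test and its probe set test rest on the same values. CDKN1B lies at chr12:12717368-12722369 in GRCh38.p14. Its promoter, from 250 bases before to 50 bases after the start site, is shown because it belongs to the gene that rose at day 6. The letters are RefSeq's for GRCh38.p14, on the plus strand at chr12:12717118-12717417, with matches to CCAAT and GGGCGG on either strand in capitals.
CDKN1B: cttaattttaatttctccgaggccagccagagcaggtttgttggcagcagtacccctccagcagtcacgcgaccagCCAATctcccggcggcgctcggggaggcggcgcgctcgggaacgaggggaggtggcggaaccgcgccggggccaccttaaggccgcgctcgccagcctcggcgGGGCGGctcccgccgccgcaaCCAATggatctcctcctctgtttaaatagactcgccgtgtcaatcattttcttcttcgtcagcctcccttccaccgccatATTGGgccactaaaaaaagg

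In the CDKN1B promoter, 3 matches to CCAAT were found, starting 174 and 50 bases before the start site and, on the other strand, at base 31 counted from it. A single GGGCGG, the letters of a GC box, starts 71 bases before. Over all 35116 promoters of the same length, 34.6% held a CCAAT and 45% a GGGCGG on either strand. The E2F letters searched (TTTCCCGC, TTTCGCGC, TTTGCCGC and TTTGGCGC) occur in 3.31% of all promoters and the FOXO letters (TGTTTAC) in 3.42%, and neither was in any of the CDK inhibitor promoters that were in the table. CDKN1C had no entry. The CDKN1B window holds 29 CG pairs, where the median promoter holds 14.

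At day 1, CDKN1B (probe set 209112_at) stood at 8.87, 8.75 and 8.82 in DMSO and at 9.08, 8.83 and 9.05 with the inhibitor. The arms overlapped, and the difference of 0.17 (SE 0.14) was not called (limma, adjusted p = 1). At day 2 the values were 8.86, 8.94 and 8.88 in DMSO and 9.20, 9.50 and 9.35 with the inhibitor. Every inhibitor array lay above every DMSO array, and the difference of 0.46 (SE 0.14) had an adjusted p of 0.0678 in limma. It passed the threshold in 6 of the alternative settings given in the closing section.

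At day 3 the DMSO arrays of CDKN1B spread from 9.05 over 9.34 to 9.83, while the inhibitor arrays were at 9.56, 9.75 and 9.55. DMSO replicate 2 was the highest of all 6 arrays, and the difference was 0.21 (SE 0.14, limma adjusted p = 0.349). Without that array it was 0.43 and was called (adjusted p = 0.0196). At day 6 the levels were 9.01, 9.21 and 8.88 in DMSO and 9.68, 9.70 and 9.96 with the inhibitor. All inhibitor arrays were above all DMSO arrays, with means of 9.03 ± 0.17 and 9.78 ± 0.16 (SD, n = 3 each). CDKN1B thus rose by 0.75 (SE 0.14), a fold of 1.68 (limma, adjusted p = 0.000133), and the call held in all 16 alternatives tried, with values from 0.66 to 0.84. In these bulk samples a change in the number of cells of a kind and a change in RNA per cell cannot be told apart.

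The effect on CDKN1B was larger at day 6 than at day 1 by 0.57 (SE 0.20, limma adjusted p = 0.0341), a test in which 26.7% of all genes were called. As in the day 6 test, the share of those calls that were higher depends on the scale, at 46% as deposited and 57.8% after the shift that puts the median gene at no change. The CDKN1B call was lost without DMSO day 1 replicate 1 (0.55) or 3 (0.57), inhibitor day 1 replicate 2 (0.49), DMSO day 6 replicate 1 (0.56) or 3 (0.50), or inhibitor day 6 replicate 3 (0.48). Within the inhibitor arm alone, CDKN1B rose by 0.79 (SE 0.14) from day 1 to day 6 (limma, adjusted p = 7.56e-05), where 41% of all genes were called. In DMSO its change over the same time was 0.22 (SE 0.14, adjusted p = 0.714). The order of its group means ran from DMSO day 1 (8.81) over DMSO day 2 (8.90), inhibitor day 1 (8.99), DMSO day 6 (9.03), inhibitor day 2 (9.35), DMSO day 3 (9.41) and inhibitor day 3 (9.62) to inhibitor day 6 (9.78). Each neighbour in this order overlapped the next, so no single step in it stands clear of the spread.

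CDKN1A, whose product p21 also binds PCNA, was not called at any day. Its probe set 202284_s_at ranged from 5.97 to 6.996 over the 24 arrays. At day 6 the DMSO arrays were at 6.73, 6.44 and 6.29 and the inhibitor arrays at 6.71, 6.65 and 6.54. The arms overlapped at every day, and the differences were -0.25, -0.28, -0.14 and 0.15 (SE 0.16 each), with limma adjusted p of 1, 0.386, 0.615 and 0.463. Its 8 group means lay between 6.31 (inhibitor day 1) and 6.71 (DMSO day 3), each overlapping its neighbour in the order. The change of its effect from day 1 to day 6 was 0.39 (SE 0.22, limma adjusted p = 0.209).

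CDKN1C, an imprinted gene that codes for p57, was dim in this line, with all 5 of its probe sets below 5.14 on average. Its brightest, 219534_x_at, ranged from 4.24 to 4.98. At day 3 it stood at 4.79, 4.51 and 4.89 in DMSO and at 4.51, 4.24 and 4.47 with the inhibitor. The groups met at 4.51, and the fall of 0.32 (SE 0.11) passed the gene test by little (limma, adjusted p = 0.0496) and missed the probe set test (adjusted p = 0.0735). The gene call was lost without DMSO replicate 1 (-0.29) or 3 (-0.24) or inhibitor replicate 2 (-0.24) or 3 (-0.35) at day 3. The differences at days 1, 2 and 6 were -0.10, 0.00 and -0.14 and were not called.

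Another CDKN1C probe set, 213182_x_at, fell at day 6. Its arrays were at 4.34, 4.33 and 4.42 in DMSO and at 4.07, 3.78 and 3.74 with the inhibitor. The arms did not overlap, and the fall of 0.50 (SE 0.12) had an adjusted p of 0.00272 in limma over all probe sets. At day 6 the remaining 3, 219533_at, 216894_x_at and 213348_at, differed by -0.35, -0.26 and -0.12 (adjusted p of 0.0504, 0.0889 and 0.302). The first passed without DMSO day 6 replicate 3 (-0.42) or inhibitor day 6 replicate 2 (-0.53), and the second without DMSO day 6 replicate 2 (-0.36). At these levels a log2 difference on the array tends to understate a change, and the median of all dim genes was itself at -0.12 at day 6.

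Among the INK4 genes, CDKN2A fell and was the only measured CDK inhibitor gene called at both day 3 and day 6. CDKN2A and CDKN2B are neighbours at 9p21, at chr9:21967752-21995324 and chr9:22002903-22009313 in GRCh38.p14, both read from the minus strand. CDKN2A has 2 start sites in the RefSeq table, of which the upstream one is that of the ARF transcript and the downstream one that of p16. The 3 promoters of the pair are shown because their genes' probe sets moved in opposite directions at day 6. They are the minus strand of GRCh38.p14 at chr9:21995275-21995574, chr9:21974808-21975107 and chr9:22009256-22009555, with GGGCGG on either strand in capitals.
CDKN2A upstream start: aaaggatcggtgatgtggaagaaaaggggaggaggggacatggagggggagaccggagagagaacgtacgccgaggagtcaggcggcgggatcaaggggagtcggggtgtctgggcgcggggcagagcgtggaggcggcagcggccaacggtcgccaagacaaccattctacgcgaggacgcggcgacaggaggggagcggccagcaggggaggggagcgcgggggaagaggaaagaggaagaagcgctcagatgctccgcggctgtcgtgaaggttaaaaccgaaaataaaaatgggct
CDKN2A downstream start: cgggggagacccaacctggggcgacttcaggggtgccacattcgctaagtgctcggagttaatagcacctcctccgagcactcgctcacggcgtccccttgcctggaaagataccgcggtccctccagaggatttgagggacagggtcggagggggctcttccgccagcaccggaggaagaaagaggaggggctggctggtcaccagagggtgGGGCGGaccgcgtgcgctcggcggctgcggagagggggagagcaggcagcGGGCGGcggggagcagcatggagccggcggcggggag
CDKN2B: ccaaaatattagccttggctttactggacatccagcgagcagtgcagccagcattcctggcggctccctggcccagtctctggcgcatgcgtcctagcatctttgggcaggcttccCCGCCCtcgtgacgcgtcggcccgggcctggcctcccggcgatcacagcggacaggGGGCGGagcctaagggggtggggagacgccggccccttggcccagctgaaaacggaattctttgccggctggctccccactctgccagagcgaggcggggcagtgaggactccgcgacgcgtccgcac

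The upstream CDKN2A window holds none of the letters searched, and 28 CG pairs. The downstream one holds 2 GGGCGG, starting 37 bases before the start site and at base 14 counted from it, and 26 CG pairs. In the CDKN2B window, 2 matches start 134 and 78 bases before the start site, the first on the other strand, beside 25 CG pairs. None of the 3 has a CCAAT. Which of the CDKN2A transcripts each probe set reads was not analysed here.

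CDKN2A's brightest probe set, 209644_x_at, was even over replicates, with SDs of 0.01 to 0.06 in the 8 groups. At day 1 it stood at 9.31, 9.29 and 9.35 in DMSO and at 9.18, 9.20 and 9.26 with the inhibitor. At day 2 these were 9.24, 9.26 and 9.30 against 9.21, 9.16 and 9.20. The inhibitor arrays lay below all DMSO arrays at both days, yet the differences of -0.10 (SE 0.05, adjusted p = 0.913) and -0.07 (SE 0.05, adjusted p = 0.537) were not called by limma.

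At day 3 the CDKN2A arrays were at 9.26, 9.28 and 9.31 in DMSO and at 8.99, 8.97 and 8.97 with the inhibitor, and CDKN2A fell by 0.31 (SE 0.05, limma adjusted p = 0.000349). At day 6 they were at 9.33, 9.33 and 9.34 in DMSO and at 8.55, 8.66 and 8.61 with the inhibitor. Both arms were tight and far apart, with means of 9.34 ± 0.01 and 8.61 ± 0.06 (SD, n = 3 each). CDKN2A fell by 0.73 (SE 0.05), a fold of 1.66 (limma, adjusted p = 3.85e-10), and the call held in all 16 alternatives, with values from -0.76 to -0.61. The day 3 call held in all 16 too, with values from -0.32 to -0.27.

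The second CDKN2A probe set, 207039_at, gave the same direction at a lower level of signal. At day 3 it was at 6.82, 7.01 and 6.77 in DMSO and at 6.52, 6.47 and 6.35 with the inhibitor, a fall of 0.42 (SE 0.10, limma adjusted p = 0.00553). At day 6 it was at 6.82, 6.91 and 7.02 in DMSO and at 6.13, 6.14 and 6.23 with the inhibitor. The arms stood apart at both days, and the fall at day 6 was 0.75 (SE 0.10, limma adjusted p = 1.64e-06). The third, 211156_at, was dim and fell by 0.34 (SE 0.12, limma adjusted p = 0.0335) at day 6, from 4.43, 4.33 and 4.55 in DMSO to 4.16, 4.22 and 3.93. The call of this probe set was lost without DMSO day 6 replicate 1 (-0.34) or 3 (-0.28) or inhibitor day 6 replicate 3 (-0.25), and it held in 8 of 14 alternatives in all.

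The fall of CDKN2A grew between day 1 and day 6, by 0.62 (SE 0.08, limma adjusted p = 2.22e-06) on 209644_x_at and by 0.81 (SE 0.14, adjusted p = 0.000126 over all probe sets) on 207039_at. Within the inhibitor arm CDKN2A fell by 0.61 (SE 0.05) from day 1 to day 6 (limma, adjusted p = 7.48e-09), and in DMSO the change was 0.02 (SE 0.05, adjusted p = 0.964). The order of its groups on 209644_x_at was inhibitor day 6 (8.61), inhibitor day 3 (8.98), inhibitor day 2 (9.19), inhibitor day 1 (9.21) and the 4 DMSO groups (9.26 to 9.34). The first 2 stood clear of each other and of inhibitor day 2, and from there on each group overlapped the next. On 207039_at the lowest 3 groups by mean were the same, at 6.16, 6.45 and 6.58. Inhibitor day 6 was clear of every other group, while the spread-out DMSO day 2 arrays overlapped inhibitor day 3 and inhibitor day 2.

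**Figure D3:**
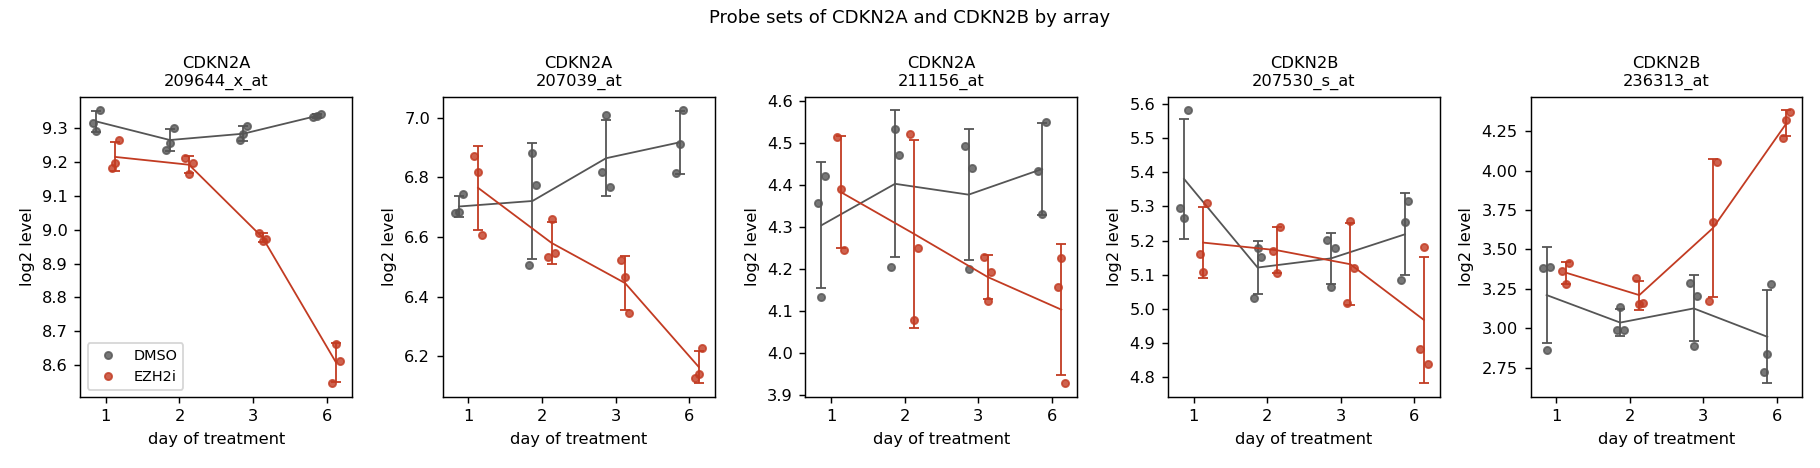
Log2 level of the 3 CDKN2A and 2 CDKN2B probe sets by day of treatment (days evenly spaced), with points for arrays and lines and bars for the mean and SD of 3 arrays in DMSO (grey) and EZH2 inhibitor (red), each panel on its own scale. The inhibitor line falls to 8.61 and 6.16 for the brighter CDKN2A probe sets and climbs to 4.30 for CDKN2B 236313_at.

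CDKN2B, which codes for p15 and is known as a target of TGF-beta signalling, gave opposite readings on its 2 probe sets. The brighter one, 207530_s_at, was at 5.08, 5.25 and 5.32 in DMSO and at 4.88, 5.18 and 4.84 with the inhibitor at day 6. Inhibitor replicate 2 lay among the DMSO arrays, and the fall of 0.25 (SE 0.10) passed the gene test (limma, adjusted p = 0.0466) but not the probe set test (adjusted p = 0.0602). The gene call was lost without DMSO day 6 replicate 2 (-0.23) or 3 (-0.20) or inhibitor day 6 replicate 1 (-0.21) or 3 (-0.19). On the probe set test it was called without DMSO day 6 replicate 1 (-0.32) or inhibitor day 6 replicate 2 (-0.36). At days 1, 2 and 3 it differed by -0.19, 0.05 and -0.02, none of them called.

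The dimmer CDKN2B probe set, 236313_at, moved the other way. In DMSO it was at 2.72, 2.84 and 3.28 at day 6, and with the inhibitor at 4.21, 4.32 and 4.37. The highest DMSO array of any day was at 3.39, so the 3 inhibitor arrays stood above all 12 of them. It rose by 1.35 (SE 0.18, limma adjusted p = 1.94e-06) from DMSO values that lie low on the array, so that the size gives no reliable fold, and the call held in all 14 alternatives tried, with values from 1.24 to 1.52. At day 3 the inhibitor arrays were spread at 3.18, 3.68 and 4.05 against 3.29, 2.89 and 3.20 in DMSO, and the difference of 0.51 (SE 0.18) was not called (adjusted p = 0.0696). Without inhibitor day 3 replicate 1 it was 0.74 and called (adjusted p = 0.00501).

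The effect on 236313_at was larger at day 6 than at day 1 by 1.21 (SE 0.25, limma adjusted p = 0.00102), where 19.2% of all probe sets were called. In order of its groups, inhibitor day 6 (4.30) stood clear of inhibitor day 3 (3.64), and the 7 groups from there down to DMSO day 6 (2.95) overlapped their neighbours. All its values lie below 5.14. With the mean of both probe sets as the gene's value, CDKN2B turned from lower to higher at day 6 (0.55), so the direction of this gene depends on which probe set is read.

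CDKN2D, which codes for p19, was higher with the inhibitor at day 6 in level but was not called. Its brighter probe set, 210240_s_at, was at 5.04, 5.63 and 5.63 in DMSO and at 5.63, 5.74 and 6.07 with the inhibitor. The lowest inhibitor array lay just above the highest DMSO array, and the difference was 0.38 (SE 0.19, limma adjusted p = 0.0986). In both arms replicate 1 was the lowest, and in a fit that took replicate number as a block the same difference was called (adjusted p = 0.00553). At days 1, 2 and 3 the differences were -0.07, -0.08 and 0.10. Within the inhibitor arm CDKN2D rose by 0.47 (SE 0.19) from day 1 to day 6 (limma, adjusted p = 0.0457), where 41% of all genes were called. The same change missed limma's probe set test (adjusted p = 0.0565). The gene call was lost without inhibitor day 1 replicate 1 (0.35) or 2 (0.51) or inhibitor day 6 replicate 2 (0.51) or 3 (0.34). The dimmer probe set, 213586_at, lay between 3.89 and 4.42 and differed by -0.09 at day 6 (adjusted p = 0.658).

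The partners of these inhibitors were described as lists beside them. Of 12 cyclins, kinases and PCNA, which the inhibitors bind, 9 fell and none rose at day 6, with a median difference of -1.03, beside 26.9% of all genes lower and a median of -0.11. CCNA2, the cyclin A of S phase, fell by 1.66 (SE 0.16) from 10.79 ± 0.21 to 9.13 ± 0.33 (SD, n = 3 each). CCNB1, the cyclin of mitosis, fell by 1.32 (SE 0.08), CCNE2, a cyclin E, by 1.21 (SE 0.15) and CDK4, the kinase that the INK4 proteins bind, by 1.20 (SE 0.15). The second INK4 partner, CDK6, fell by 0.69 (SE 0.13). The D cyclins CCND1, CCND2 and CCND3 differed by -0.03, -0.01 and -0.16 and were not called. At day 3, 4 of the 12 fell (CCNA2, CDK2, PCNA and CCNB1), beside 16.3% of all genes called. At days 1 and 2 none was called by limma (1 at each day had an unadjusted p under 0.05), where 0.485% and 4.39% of all genes were.

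**Figure D4:**
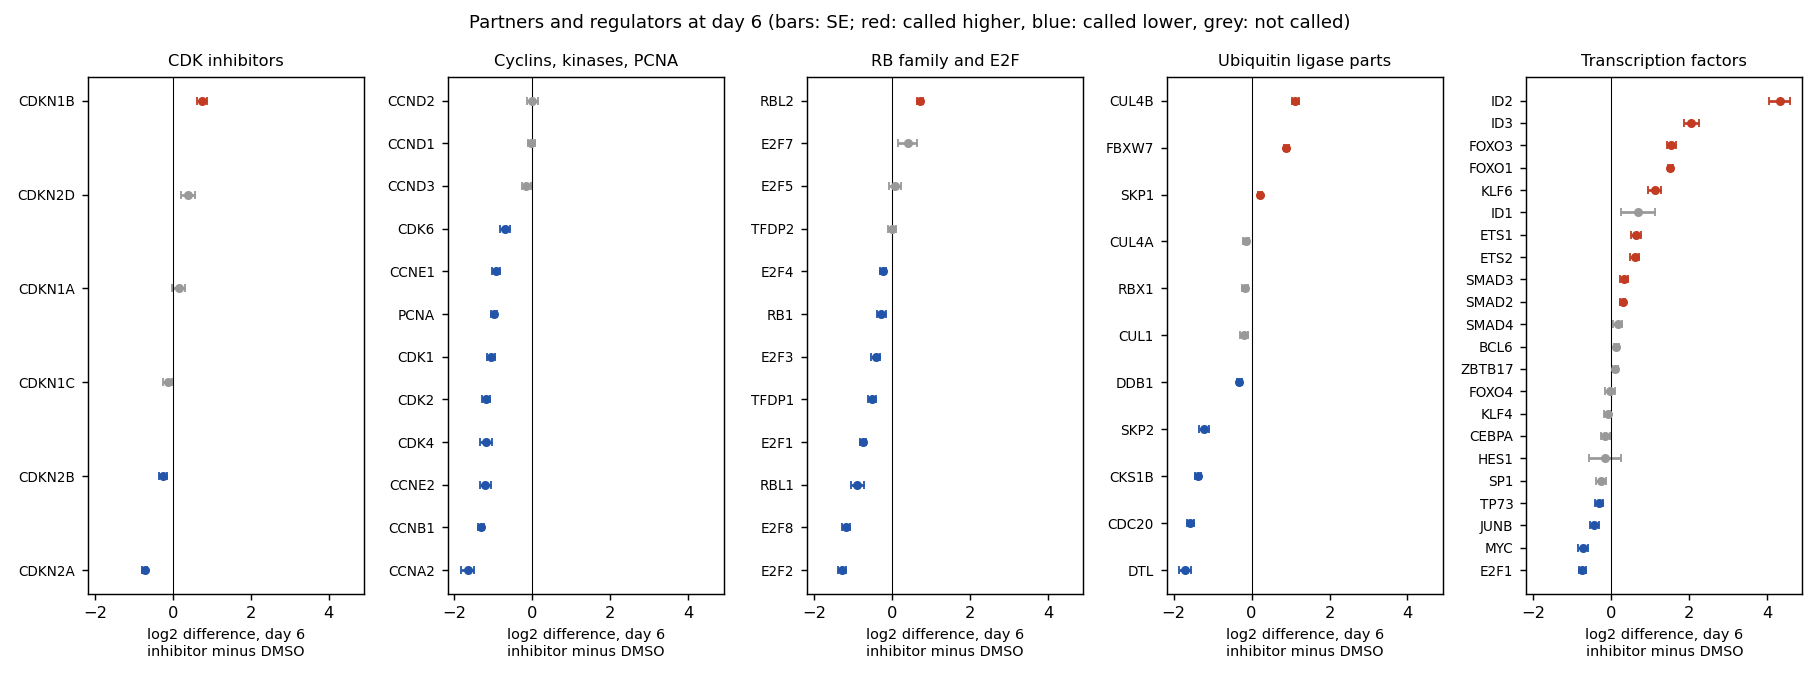
Log2 difference between inhibitor and DMSO at day 6 (x axis) for the CDK inhibitor genes and for the members of 4 lists of partners and regulators (y axis), with bars of 1 SE, red for called higher, blue for called lower and grey for not called. The cyclins and kinases called lie between -1.66 and -0.69, and ID2 stands highest at 4.32.

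Of 12 genes of the retinoblastoma family and E2F, whose control is the end point of these inhibitors, 8 fell and 1 rose at day 6, beside 26.9% of all genes lower and 18.5% higher, with a median of -0.34 against -0.11. E2F2 fell by 1.28, E2F8 by 1.19, RBL1 (p107) by 0.89 and E2F1 by 0.74, while RBL2 (p130, the family member of resting cells) rose by 0.72 (SE 0.08). Of 11 listed parts of ubiquitin ligases, among them those that remove CIP/KIP proteins, 5 fell and 3 rose at day 6. That was beside the same 26.9% and 18.5% of all genes, with a median of -0.19. SKP2, which recognises p27, fell by 1.23 (SE 0.13) from 10.90 ± 0.10 to 9.67 ± 0.21 (SD, n = 3 each), and its cofactor CKS1B fell by 1.37 (SE 0.07). DTL, which recognises p21, fell by 1.70 and CDC20 by 1.57. CUL4B, FBXW7 and SKP1 rose by 1.12, 0.89 and 0.21.

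Of 24 transcription factors known to act on CDK inhibitor genes, 22 were measured, and 9 rose and 4 fell at day 6, beside 18.5% of all genes higher and 26.9% lower, with a median of 0.15 against -0.11. The remaining listed factors were not analysed here. FOXO1 and FOXO3, known activators of CDKN1B, rose by 1.51 (SE 0.06) and 1.55 (SE 0.12) at day 6. They were called from day 2 on, at 0.56 and 0.45, and at 0.91 and 0.77 at day 3, when 4.39% and 16.3% of all genes were called. ID2, an inhibitor of other factors, rose by 4.32 (SE 0.26) at day 6 and was already called at day 1 (1.27, limma adjusted p = 0.0256), as were 0.485% of all genes and none of the CDK inhibitor genes. ID3 rose by 2.06 at day 6, KLF6, an activator of CDKN1A, by 1.12, and MYC, a repressor of several of these genes, fell by 0.73. None of the members of these 4 lists was called between day 1 and day 6 in DMSO by limma, where only 0.288% of all genes were. In the order described, 0, 3, 3 and 3 members had an unadjusted p under 0.05.

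Of 7 neighbours of CDKN2A and CDKN2B at 9p21, 3 were called at day 6, a share near the 45.4% of all genes. MLLT3 and KLHL9 rose by 2.08 (SE 0.15) and 0.43 (SE 0.07) and DMRTA1 fell by 0.30 (SE 0.08), and the median of the 7 was -0.15. MLLT3 was called from day 2 on (0.53 at day 2 and 1.19 at day 3). MTAP, the enzyme gene next to CDKN2A at chr9:21802636-21941115, was not called on its brightest probe set (-0.21, limma adjusted p = 0.077). By contrast, 4 of its 6 probe sets fell by 0.48 to 0.95, beside 36.7% of all probe sets called in either direction at day 6. CDKN2B-AS1, the antisense RNA that overlaps CDKN2B, differed by -0.19 at day 6 and was not called (adjusted p = 0.156). Its probe set had a mean of 2.57, near the floor of the array.

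For each CDK inhibitor gene called at any day, the 3 genes most like it over the 24 arrays were found by Pearson correlation, as a description. All 24 points share the 8 groups and the normalization, and the group differences themselves enter the correlation. CDKN2A was most like MRPS34 (0.983), CNOT9 (0.983) and NUDT5 (0.982), and 838 genes correlated with it at 0.9 or more. Each of these 3 fell at day 6, by 1.04, 1.49 and 0.88. CDKN1B was most like KLHL6 (0.909), SNHG33 (0.909) and BEX2 (0.907), which rose by 1.25, 0.49 and 1.50 at day 6, and 4 genes reached 0.9. CDKN1C and CDKN2B had weaker partners, and no gene reached 0.9 with either. These were SFRP5 (0.839), IGLON5 (0.839) and SLC4A9 (0.81) for CDKN1C. For CDKN2B on 207530_s_at they were FBLL1 (0.799), CEND1 (0.798) and NCK1-DT (0.778).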

How the data were processed

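Total RNA of 24 KARPAS-422 samples was hybridised by the submitters to 1 array each. Per the submitters' processing notes, the deposited values were made with RMA in R 2.10.1. The notes do not give the log base, and the deposited range of 1.72 to 14.33 is that of log2 expression values. Gene names came from the platform's table, where 41091 of 54613 probe sets have a single symbol. Differences were tested with limma 3.58.1 in R 4.3.3 (lmFit with 1 coefficient for each of 8 groups, eBayes, 2-sided), with 16 residual and 5.22 prior degrees of freedom, and p adjusted by Benjamini-Hochberg over all genes, or over all probe sets for single probe sets. The code was tested on simulated data. The number of arrays limits the precision. Beyond the labels' word biological, nothing gives the replicates' origin, so p measures the spread between these samples. The CDK inhibitor genes, the other lists (written from general knowledge) and the tests were chosen with earlier results of these data known. Named by rule are all CDK inhibitor genes with every probe set, EZH2 and the 3 most correlated genes. The rule also names up to 4 members of each other list with the largest differences among those called at day 6. Outside this rule, CDK6, the D cyclins, RBL2, SKP1, CUL4B, FBXW7, KLF6, MYC and FOXO4 were named after their values were seen. So were FOXO1, FOXO3, ID2 and MLLT3 at earlier days, members of a list called at day 3 and the listed genes at 9p21 that were not called. Inhibitor and DMSO arrays of the same day and number were compared after each gene's group mean was subtracted, so these correlations are of what remains. Of 12 such pairs, 11 correlated above 0.1 and number 2 at day 2 did not (0.0432). Pairing was taken as given only if all did, so the fit without a block was kept and the replicate block is an alternative. Promoter letters came from RefSeq's table for GRCh38.p14. Alternatives were other scaling, a filter on dim genes, another value per gene, other fits, a replicate block and leaving out each array.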

Additional observations from a re-analysis of the deposited data

Results flagged for a closer look

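Of the CDK inhibitor genes and probe sets, 4 had an effect at day 6 that differed from the effect at day 1 in limma's test of the difference itself. For CDKN1B the effect was 0.57 higher at day 6 (SE 0.20, adjusted p = 0.0341), and for CDKN2A it was lower, at -0.62 (SE 0.08, adjusted p = 2.22e-06). The second CDKN2A probe set, 207039_at, had a difference of -0.81 (SE 0.14, adjusted p = 0.000126 over all probe sets). The dim CDKN2B probe set 236313_at had a difference of 1.21 (SE 0.25, adjusted p = 0.00102 over all probe sets). In that test 26.7% of all genes and 19.2% of all probe sets were called.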

How the results depend on the processing

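The day 6 calls of CDKN1B and CDKN2A kept direction and threshold under all 16 alternatives tried, and those of CDKN2A 207039_at under 15 and of CDKN1C 213182_x_at and CDKN2B 236313_at under 14 each. The count of CDK inhibitor genes called at day 2, which is 0, was 1 (CDKN1B) without the dimmest 40% of genes, with only the groups compared, with array weights, with the replicate block, with the replicate block within each day, and after a shift of each array that puts the median gene at no change, an alternative chosen after seeing the data. At day 3 the count of 2 was 1 with quantile normalization again, without the dimmest 40%, with a gene's probe sets averaged, with only the groups compared, with an intensity trend and robust prior, and after that shift. Leaving out 1 array gave 1 to 3 genes at day 3, 2 to 3 at day 6, 1 to 2 for the effect at day 6 minus that at day 1, 2 to 3 for the inhibitor arm over time, and 0 at days 1 and 2 and for DMSO over time. The number of CDK inhibitor probe sets called at day 3, which is 2, was 1 with only the groups compared and 4 with the replicate block or the replicate block within each day, and 2 to 4 when 1 array was left out. Those added by the replicate block at day 3 were CDKN2B 236313_at (adjusted p = 0.0359) and CDKN1C 219534_x_at (0.0476). At day 6 the 6 became 10 with the replicate block, by CDKN2B 207530_s_at (0.0428), CDKN1C 219533_at (0.0458) and 216894_x_at (0.0432) and CDKN2D 210240_s_at (0.00772), and 5 to 8 without 1 array, and at day 2 the 0 became 1 with the replicate block within each day. Over all 54613 probe sets, the block within each day gave 2713 calls in place of 1232 at day 2 and 8727 in place of 5606 at day 3. For the replicate block at days 3 and 6 the total over all probe sets is not given here. The counts of 4 and 10 with that block thus have no background beside them. With the mean of its 2 probe sets, CDKN2B reversed to 0.55 at day 6, to 0.57 for the effect at day 6 minus that at day 1, and to 0.36 in the inhibitor arm over time. The CDKN2B call at day 6 held in 6 of 16 alternatives, that of CDKN1C at day 3 in 6 of 15, that of CDKN2D in the inhibitor arm in 10 of 15, and that of CDKN2A 211156_at at day 6 in 8 of 14, lost also with quantile normalization again (adjusted p = 0.0619), the shift (0.0949) and the replicate block within each day (0.0586). CDKN2D at day 6 was called after that shift (0.47, adjusted p = 0.0443) and with the replicate block. The share of higher calls in the inhibitor arm over time moved from 41.3% to 56.7% after that shift. Over all genes, 96 calls at day 1 were 46 with only the groups compared, 53 with the mean of probe sets, 160 with array weights, 246 with the replicate block and 301 with the block within each day, 869 at day 2 were 1441, 1649 and 1866 in the last 3 of these, 3221 at day 3 were 4853 with the block within each day, and 57 in DMSO over time were 31 with only the groups compared, 92 with array weights, 199 with the replicate block and 23 to 41 without 1 array. After each gene's group mean was subtracted, 23 of 24 arrays were closest, among arrays of other groups, to an array of the same replicate number. That bears on the block as a hint from the data only. The cause of these changes was not tested. RMA gives no detection call, so the CDKN1C probe sets, CDKN2A 211156_at, CDKN2B 236313_at and CDKN2D 213586_at are limited by signal near background. The brighter CDKN2B probe set, 207530_s_at, had a mean of 5.17, just above 5.14, so the same limit bears on it.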
